A study of Mus musculus with 8 samples.

Results

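The DNAJ co-chaperones and the CCT chaperonin are 2 arms of the cytosolic and organellar protein folding system. Their members were chosen by gene symbol, namely Dnaja, Dnajb or Dnajc followed by a number, Cct followed by a number, and Tcp1. This gave 54 of the 18193 genes that the array names through a probe set with 1 symbol. They were 4 Dnaja, 13 Dnajb and 27 Dnajc genes, together 44 DNAJ genes, and 10 CCT genes. Each gene was read by its brightest probe set, and 34 of the 54 had further probe sets, 77 in all. The 3 probe sets that carry a rule-matching symbol together with another symbol were not used.

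The samples were NG4 mouse embryonic stem cells, taken 48 h after reverse transfection with a small interfering RNA (siRNA). The groups were siSox2, against a transcription factor of the pluripotency network, siPsmd14, against a deubiquitinase in the lid of the proteasome, siDdb1, against the adaptor of CUL4 ubiquitin ligases, and siNonTarget, the non-targeting control. Each of the 4 groups had 2 arrays, all 8 from the same cell line, and no group was left untransfected. Whether the 2 arrays of a group came from separate cultures is not given in the sources used here, so p-values reflect how far these arrays lie apart and may cover technical variation alone.

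DNAJ proteins carry a J domain that stimulates the ATPase of HSP70 chaperones and so loads them with clients. Class A (Dnaja) and class B (Dnajb) proteins include the general folding partners of cytosolic HSP70, and several class B and class C (Dnajc) proteins act in the endoplasmic reticulum (ER), mitochondria, on ribosomes or on clathrin-coated vesicles. CCT, also called TRiC, is a double-ring ATP-driven chamber built from 8 different subunits, Tcp1 and the products of Cct2, Cct3, Cct4, Cct5, Cct6a, Cct7 and Cct8, and it folds actin and tubulin among other clients. Heat shock factors act through a heat shock element in promoters, and the ER stress response acts in part through the ER stress response element (ERSE).

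The promoters below are shown because the results turn on these genes or because they hold one of those elements. RefSeq promoters, on GRCm38.p6, were matched for 45 of the 54 members. The Dnajc6 promoters, from 2 annotated starts on chromosome 4, cover the 250 bases before each start, at chr4:101507726-101507975 and chr4:101550344-101550593, both on the + strand. Capitals mark the SOX core, searched as CATTGT or CTTTGT on both strands, a motif added after the values were seen.
Dnajc6 start 1: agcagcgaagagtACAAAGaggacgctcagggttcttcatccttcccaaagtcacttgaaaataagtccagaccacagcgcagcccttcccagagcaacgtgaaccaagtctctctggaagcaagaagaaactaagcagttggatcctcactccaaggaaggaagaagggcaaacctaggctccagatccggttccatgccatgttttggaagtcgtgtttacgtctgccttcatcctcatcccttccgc
Dnajc6 start 2: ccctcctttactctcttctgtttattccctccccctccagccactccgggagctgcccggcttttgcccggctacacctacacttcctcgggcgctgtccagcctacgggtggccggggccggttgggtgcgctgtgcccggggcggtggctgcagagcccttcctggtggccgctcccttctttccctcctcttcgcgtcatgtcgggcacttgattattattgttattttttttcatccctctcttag
The SOX core stood in a promoter of 10 of the 45 matched members (22.2%), against 31.7% of all 27025 genes in the table, over windows of 250 bases before and 50 after each start.

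The Dnajc3 promoter, at chr14:118937682-118937931 on the + strand, is shown because it was the 1 matched member with an ERSE, searched as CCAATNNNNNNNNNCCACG on both strands and marked in capitals.
Dnajc3: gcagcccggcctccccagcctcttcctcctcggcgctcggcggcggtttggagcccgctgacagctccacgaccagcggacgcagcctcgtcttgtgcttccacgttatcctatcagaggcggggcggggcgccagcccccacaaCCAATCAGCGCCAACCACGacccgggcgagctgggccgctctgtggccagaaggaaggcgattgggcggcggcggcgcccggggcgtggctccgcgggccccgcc
The ERSE was held by 0.137% of all genes in the table.

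A heat shock element core, searched as GAANNTTC or TTCNNGAA, each of which reads the same on both strands, stood in a promoter of 7 of 36 matched DNAJ genes and 4 of 9 matched CCT genes, against 17.0% of all genes. The stretches below, of 60 bases each, show it in capitals in 4 DNAJ and 2 CCT genes, at chr4:40722318-40722377 (+) for Dnaja1, chr9:54699443-54699502 (+) for Dnaja4, chr3:152193846-152193905 (-) for Dnajb4, chr5:29735826-29735885 (+) for Dnajb6, where a pair in each order overlaps, chr10:117063384-117063443 (-) for Cct2 and chr15:31601847-31601906 (-) for Cct5.
Dnaja1: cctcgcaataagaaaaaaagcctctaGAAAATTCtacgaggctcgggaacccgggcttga
Dnaja4: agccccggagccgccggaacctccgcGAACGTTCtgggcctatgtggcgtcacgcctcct
Dnajb4: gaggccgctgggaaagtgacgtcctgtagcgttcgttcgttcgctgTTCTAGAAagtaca
Dnajb6: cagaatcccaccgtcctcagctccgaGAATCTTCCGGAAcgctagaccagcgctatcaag
Cct2: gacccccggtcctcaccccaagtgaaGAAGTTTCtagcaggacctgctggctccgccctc
Cct5: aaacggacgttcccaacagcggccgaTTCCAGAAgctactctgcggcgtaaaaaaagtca
These matches describe the letters of the windows, and no binding was measured.

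All levels below are log2 intensities of the deposited RMA values, and all differences are log2 differences between group means. The array medians lay between 4.77 and 4.85. On every array 46 of the 54 members read above the array's median and 6 below it. Sox2 signal was 83.9% and 70.0% of the siNonTarget mean on the siSox2 arrays, Psmd14 signal 90.6% and 82.8% on the siPsmd14 arrays, and Ddb1 signal 22.1% and 46.1% on the siDdb1 arrays. In limma (a linear model across all probe sets with a shared estimate of the spread) none of the 3 passed an adjusted p of 0.05 against siNonTarget (adjusted p = 0.301, 0.522 and 0.147). The difference between the Actb 3' and 5' probe sets, a sign of RNA quality, was highest on siPsmd14 replicate 1, at 0.346, while the other arrays ranged from 0.0962 to 0.214. Control probe sets for 18S ribosomal RNA read highest on siPsmd14 replicate 2 (13.06) and next on siDdb1 replicate 2 (12.68), and the remaining arrays lay between 11.00 and 11.85.

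Against siNonTarget, 2 of the 54 members passed the threshold in siSox2, 1 lower and 1 higher, and none passed in siPsmd14 or siDdb1. Of all 18193 genes, 4.28% passed in siSox2 (1.46% lower and 2.81% higher), 1.89% in siPsmd14 and 0.0440% in siDdb1, so no comparison called a larger share of the members than of all genes. The median difference over the 44 DNAJ genes was 0.01 in siSox2, -0.02 in siPsmd14 and -0.04 in siDdb1. Over the 10 CCT genes it was -0.03, -0.10 and 0.03, and over all genes -0.03 in siSox2 and -0.01 in each of the other two.

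**Figure D1:**
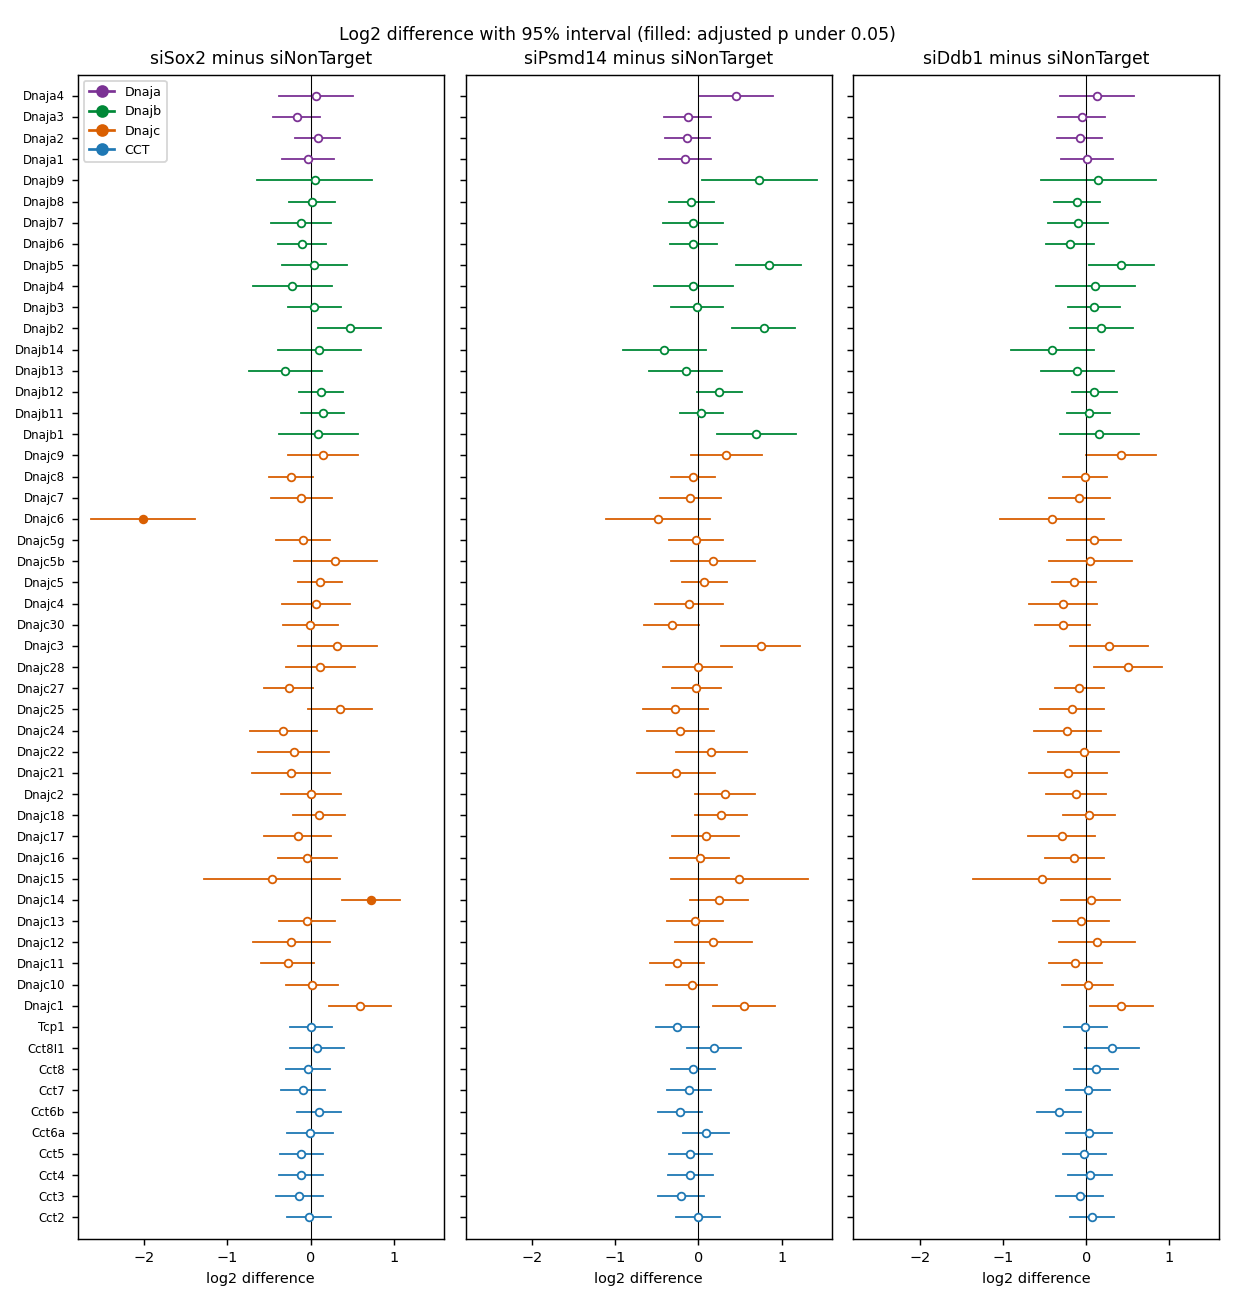
Log2 difference of each of the 54 members from siNonTarget (points) with its 95% interval from the limma fit (lines), in siSox2, siPsmd14 and siDdb1 from left to right, coloured by class, with 2 arrays per group. Filled points, adjusted p under 0.05, are Dnajc6 and Dnajc14 in siSox2, and the CCT genes at the bottom lie close to 0 in each panel.

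Dnajc6 encodes auxilin, the J protein that recruits HSC70 to strip the coat from clathrin-coated vesicles and is best known from neurons. It read 6.32 and 5.28 on the siSox2 arrays, 7.30 and 7.35 on the siPsmd14 arrays, 7.32 and 7.47 on the siDdb1 arrays, and 7.91 and 7.71 on the siNonTarget arrays. Both siSox2 arrays lay below all 6 others, and the siPsmd14 and siDdb1 arrays lay between siSox2 and siNonTarget without overlapping either. Dnajc6 fell in siSox2 by 2.01 (SE 0.28, 95% interval -2.63 to -1.38, n = 2 arrays per group), to 24.8% of the siNonTarget signal, with a limma adjusted p of 0.00727. The differences of siPsmd14 (-0.48, 95% interval -1.11 to 0.14, adjusted p = 0.482) and siDdb1 (-0.41) from siNonTarget did not pass. Set against siSox2, Dnajc6 was higher in siPsmd14 (1.53, limma adjusted p = 0.0238) and in siDdb1 (1.59, limma adjusted p = 0.0190), and these comparisons share the siSox2 arrays with each other and with the fall above. The other 3 Dnajc6 probe sets, with means over all arrays of 2.93 to 3.82 and so below the array medians, gave -0.76, -0.14 and -0.06 in siSox2 and did not pass. With all 4 probe sets averaged the difference in siSox2 was -0.74 and still passed (limma adjusted p = 0.0258), and those from siSox2 were 0.42 in both siPsmd14 and siDdb1 and did not pass. Without siNonTarget replicate 1 the difference of siSox2 from siNonTarget was -1.91 (limma adjusted p = 0.0736) and without siNonTarget replicate 2 -2.11 (limma adjusted p = 0.0823).

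Gak, the broadly expressed relative of auxilin and a J protein outside the DNAJ naming, differed by 0.44 in siSox2 (limma adjusted p = 0.28) and did not pass. It was 1 of 3 measured J proteins under other names, with Sec63 and Hscb, and none of the 3 passed in any of the comparisons with siNonTarget.

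Dnajc14, an ER membrane J protein known to affect receptor export, read 8.72 and 8.61 in siSox2, 8.11 and 8.25 in siPsmd14, 7.88 and 8.09 in siDdb1, and 8.11 and 7.76 in siNonTarget. The siSox2 arrays lay above the other 6, and the siPsmd14 and siDdb1 arrays overlapped with those of siNonTarget. It rose in siSox2 by 0.73 (SE 0.15, 95% interval 0.38 to 1.08, limma adjusted p = 0.0423), 1.66-fold. Its other probe sets gave 0.87 and 0.38 in the same direction without passing. The call was lost without any 1 of the 8 arrays: the fits that left out an array gave a limma adjusted p of 0.0518 to 0.279, with differences of 0.56 to 0.91. In siDdb1 Dnajc14 was lower than in siSox2 by a difference of -0.68 that missed the threshold (limma adjusted p = 0.0528).

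The next members in siSox2 did not pass. Dnajc1, an ER membrane J protein, read 6.93 and 7.23 in siSox2 against 6.60 and 6.37 in siNonTarget (0.60, limma adjusted p = 0.109). Dnajb2, a J protein with ubiquitin-interacting motifs, read 7.36 and 7.13 in siSox2 against 6.97 and 6.57 in siNonTarget (0.47, adjusted p = 0.207). In both genes the arrays of the groups did not overlap. At an unadjusted p under 0.05, 4 of the 54 members stood out in siSox2, against 19.1% of all genes. Both siSox2 arrays lay above both siNonTarget arrays in 14 members and below in 18, against 23.3% and 29.3% of all genes.

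Markers of other cell types moved in siSox2 beside these genes. Of 7 trophoblast markers 5 rose (Plac1, Krt7, Ascl2, Cdx2 and Tfap2c), and their summed linear intensity was 4645 and 5932 in siSox2 against 1130 and 1057 in siNonTarget. Of 5 primitive endoderm markers Foxa2 and Gata6 rose (summed intensity 226 and 253 against 106 and 98.8), and of 8 fibroblast markers Pdgfrb rose and Thy1 fell (180.5 and 258 against 195 and 185). Of 7 embryonic stem cell markers Esrrb fell, and the sum was 45229 and 41181 in siSox2 against 48696 and 53472 in siNonTarget. Sox2, the target of the siRNA, is itself among these 7 markers. It read 12.10 and 11.84 in siSox2 against 12.23 and 12.47 in siNonTarget, so the lower sum includes a lower signal of the target. That difference did not pass (-0.38, limma adjusted p = 0.301), and the part of the knockdown in the sum was not tested. All 7 had a difference below 0 in siSox2. No marker was listed at 0, and the part of these cell types in the Dnajc6 and Dnajc14 differences was not tested. In RNA from a whole culture, fewer cells of a type and less RNA per cell cannot be told apart.

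**Figure D2:**
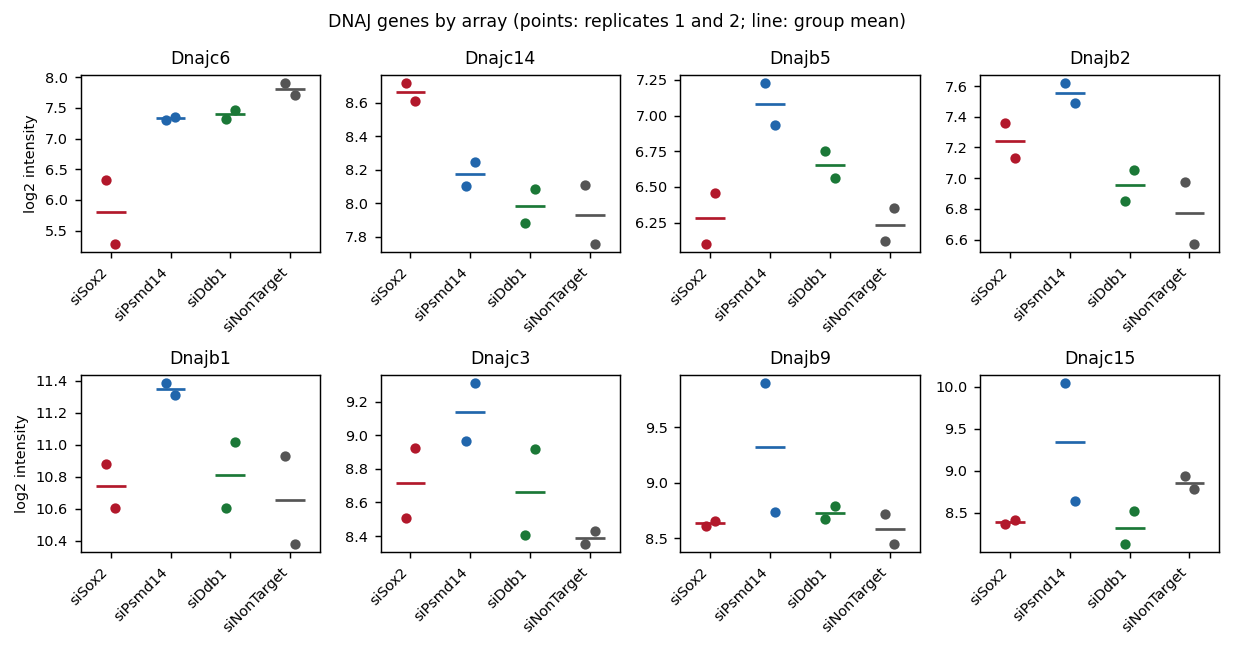
Log2 intensity (vertical axis, own scale per panel) of 8 DNAJ genes in siSox2, siPsmd14, siDdb1 and siNonTarget; points are replicates 1 and 2 and lines are group means. Dnajc6 is lowest and Dnajc14 highest in siSox2, while Dnajb9 and Dnajc15 stand apart on siPsmd14 replicate 1 alone.

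In siPsmd14 the members with the largest differences from siNonTarget were cytosolic class B genes and ER J proteins, and none passed over all probe sets. At an unadjusted p under 0.05, 7 of the 54 members were higher (Dnajb5, Dnajb2, Dnajc3, Dnajb1, Dnajc1, Dnajb9 and Dnaja4) and none lower, against 9.05% and 8.07% of all genes. The 2 arrays lay above both siNonTarget arrays in 15 members and below in 14, against 22.4% and 24.1% of all genes.

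Dnajb5, a cytosolic relative of Dnajb1, read 7.23 and 6.93 in siPsmd14, 6.10 and 6.46 in siSox2, 6.75 and 6.56 in siDdb1, and 6.12 and 6.35 in siNonTarget. The siPsmd14 arrays lay above the other 6. The difference from siNonTarget was 0.85 (SE 0.17, 95% interval 0.46 to 1.24) and missed the threshold with a limma adjusted p of 0.0563. It passed when adjusted over 1 probe set per gene (0.0446), with array medians subtracted (0.0418) or without siPsmd14 replicate 2 (adjusted p = 0.0453). Against siSox2, Dnajb5 was higher in siPsmd14 by 0.80 (limma adjusted p = 0.0464). That call was lost without any array but siPsmd14 replicate 2, with a limma adjusted p of 0.0619 to 0.224. The other Dnajb5 probe sets, with means of 4.31 and 5.78, gave -0.03 and 0.24 in siPsmd14 against siNonTarget. The mean of all 3 in siPsmd14 was higher than in siSox2 by 0.35 and did not pass (limma adjusted p = 0.187).

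Dnajb2 read 7.62 and 7.49 in siPsmd14 against 6.97 and 6.57 in siNonTarget, with no overlap. The difference was 0.79 (SE 0.17, 95% interval 0.41 to 1.16, limma adjusted p = 0.0637). Dnajb1, the stress-inducible HSP40 that partners HSP70 in the cytosol, read 11.39 and 11.31 in siPsmd14 against 10.93 and 10.38 in siNonTarget. Its difference was 0.70 (SE 0.21, 95% interval 0.22 to 1.17, limma adjusted p = 0.162), and a further Dnajb1 probe set gave 0.50. The siNonTarget arrays lay 0.55 apart, and both siPsmd14 arrays lay above them.

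The ER members of this group were Dnajc3, Dnajb9 and Dnajc1. Dnajc3, known as p58IPK, a J protein of the ER lumen that was described as an inhibitor of the kinase PERK, read 8.97 and 9.31 in siPsmd14 against 8.35 and 8.43 in siNonTarget. This was a difference of 0.75 (SE 0.21, limma adjusted p = 0.135), and the promoter shown above with an ERSE belongs to it. The 4 further Dnajc3 probe sets gave -0.19 to 0.29. Dnajb9, known as ERdj4, which works with the HSP70 BiP in ER quality control, read 9.90 on siPsmd14 replicate 1 and 8.74 on replicate 2, against 8.72 and 8.45 in siNonTarget. Only replicate 1 stood apart (difference 0.73, SE 0.30, limma adjusted p = 0.311). With replicate 1 as the only siPsmd14 array, assumed to vary like the other groups, the difference was 1.31 (limma adjusted p = 0.0112), and with replicate 2 as the only one 0.15 (limma adjusted p = 0.839). Dnajc1 read 6.89 and 7.17 in siPsmd14 against 6.60 and 6.37 in siNonTarget (0.55, adjusted p = 0.165). Dnajc1 has 6 probe sets, of which only the brightest is given here, and none of the others passed.

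Of the 10 listed ER J proteins, 7 had a difference above 0 and 3 below in siPsmd14, with a median of 0.14 and a range of -0.41 for Dnajb14 to 0.75 for Dnajc3. Dnajb11 and Dnajc10, both BiP partners in the ER lumen, differed by 0.03 and -0.08. The same list had medians of 0.12 in siSox2, with 9 of 10 above 0, and 0.03 in siDdb1, with 7 of 10 above 0. Of all genes, 47.4% lay above 0 in siPsmd14, 44.8% in siSox2 and 46.8% in siDdb1. None of the 10 listed ER J proteins passed in any of the 3 knockdowns. The ER membrane protein Dnajc14, which rose in siSox2, was listed under vesicle traffic and not among them. In siPsmd14, Krt7 alone of the 7 trophoblast markers passed, while 5 had a difference above 0 and 2 below, with a median of 0.35. Their summed linear intensity was 1178 and 1185 against 1130 and 1057 in siNonTarget. That sum weights Tfap2c most, the brightest of the 7 in siNonTarget, which read 9.40 and 9.57 in siPsmd14 against 9.76 and 9.64. In siDdb1, 5 of the 7 were above 0 and 2 below, with a median of 0.22, and none passed. All 7 embryonic stem cell markers had a difference below 0 in siPsmd14 (median -0.33), none passed, and their sum was 43988 and 44811 against 48696 and 53472 in siNonTarget. The part of these markers in the siPsmd14 differences was not tested.

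Of the 5 measured mitochondrial J proteins, none passed in any knockdown. In each of siSox2, siPsmd14 and siDdb1, 4 had a difference below 0 and 1 above, with medians of -0.17, -0.13 and -0.13. Of all genes, 44.8%, 47.4% and 46.8% had a difference above 0 in these 3 knockdowns. In siSox2, Dnaja3, Dnajc11 and Dnajc15 had both arrays below both siNonTarget arrays (-0.17, -0.27 and -0.46), as had 29.3% of all genes. Dnajc28 had both above (0.12), as had 23.3% of all genes. Dnajc15, an inner membrane J protein known as MCJ that restrains the respiratory chain, read 10.05 and 8.64 in siPsmd14, 8.37 and 8.41 in siSox2, 8.12 and 8.52 in siDdb1, and 8.93 and 8.78 in siNonTarget. The 2 siPsmd14 arrays lay 1.40 apart on either side of the siNonTarget arrays, and the siSox2 and siDdb1 arrays lay below siNonTarget, by -0.46 and -0.54. On all arrays Dnajc15 did not pass against siSox2 (0.95, limma adjusted p = 0.239) or siDdb1 (1.03, limma adjusted p = 0.328). It passed both with siPsmd14 replicate 1 as the only siPsmd14 array (1.66 and 1.73, limma adjusted p = 0.00664 and 0.0083), a fit that assumes this array varies like those of the other groups. With replicate 2 as the only one, the differences were 0.25 and 0.33 (adjusted p = 0.684 and 0.789). Of the other 4 measured, Dnaja3, Dnajc11 and Dnajc30 had differences below 0 in siPsmd14 (-0.13, -0.26 and -0.32), and Dnajc28 read 5.57 and 5.73 in siDdb1 against 5.20 and 5.10 in siNonTarget (0.50, limma adjusted p = 0.507).

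The J proteins of ribosomes, splicing and chromatin stayed within 0.42 of siNonTarget in all 3 knockdowns. The farthest was Dnajc9, a histone chaperone, at 0.41 in siDdb1, 0.34 in siPsmd14 and 0.15 in siSox2. In all 3 knockdowns, which share the control arrays, its arrays lay above both siNonTarget arrays. Next was Dnajc2, which acts on nascent chains at the ribosome (0.32 in siPsmd14). Of this list of 6 none passed. Among the 8 members listed under vesicle traffic, Dnajc6 and Dnajc14 are described above, and the others, including the exocytosis J protein Dnajc5 and the endosomal Dnajc13, did not pass in any comparison with siNonTarget.

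The class A genes gave no calls. Dnaja1, a main cytosolic partner of HSC70, read 13.20 and 13.19 in siSox2, 12.89 and 13.22 in siPsmd14, 13.19 and 13.26 in siDdb1, and 13.20 and 13.24 in siNonTarget, and only siPsmd14 replicate 1 lay over 0.2 from the others. Dnaja2, also cytosolic, differed by 0.09, -0.13 and -0.08 in siSox2, siPsmd14 and siDdb1. For the mitochondrial Dnaja3 the differences were -0.17, -0.13 and -0.06. Dnaja4, a further cytosolic class A protein, read 4.82 and 4.31 in siPsmd14 against 4.09 and 4.13 in siNonTarget (0.45, 95% interval 0.01 to 0.90, limma adjusted p = 0.335), below or close to the array medians.

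The other DNAJ genes stayed near siNonTarget. Dnajb6, a class B protein that holds back aggregation of polyglutamine proteins, read 12.12 and 12.05 in siSox2, 12.21 and 12.04 in siPsmd14, 11.93 and 12.06 in siDdb1, and 12.13 and 12.24 in siNonTarget. Its siDdb1 arrays lay below both siNonTarget arrays, by -0.19, and its siPsmd14 arrays overlapped with them. Dnajb4, Dnajb12, Dnajb13, Dnajc4, Dnajc12, Dnajc16, Dnajc18, Dnajc22, Dnajc24 and Dnajc27 did not pass in any of the 6 comparisons on all arrays, and the farthest from siNonTarget was Dnajc24, which acts in diphthamide synthesis, at -0.33 in siSox2. Dnajb3, Dnajb7, Dnajb8, Dnajc5b and Dnajc5g, relatives known mainly from testis, had means under 5 over all arrays, as had Dnaja4, Cct6b and Cct8l1, and none of these 8 passed.

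**Figure D3:**
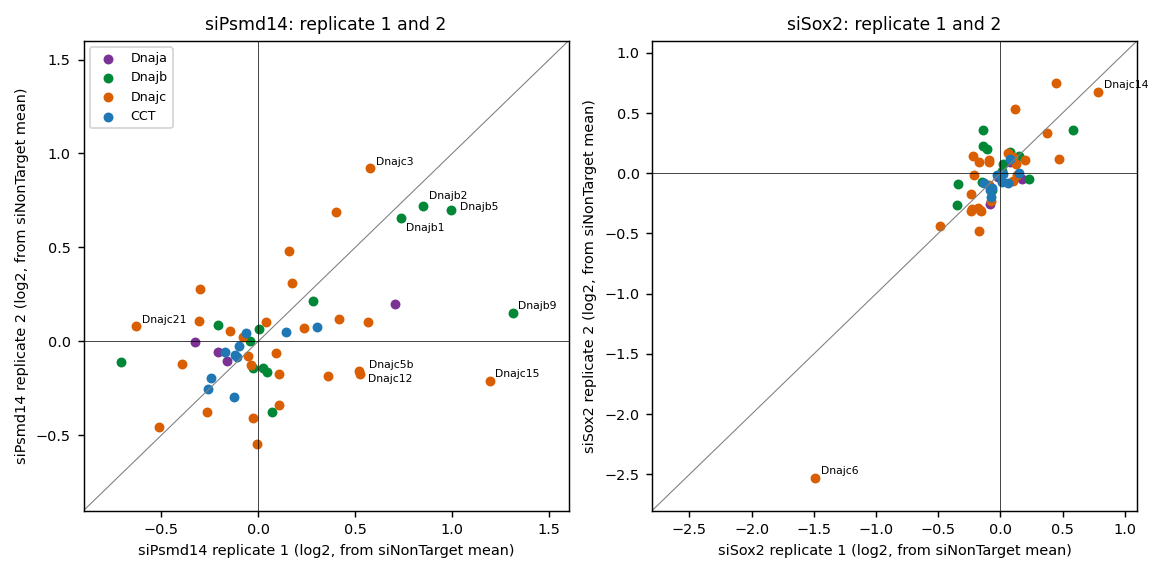
Difference of each member from the siNonTarget mean (log2) on replicate 1 (horizontal) and replicate 2 (vertical) of siPsmd14 (left) and siSox2 (right), coloured by class, with the diagonal marking equal values. In siPsmd14, Dnajb9 and Dnajc15 lie far below the diagonal while Dnajb1, Dnajb2, Dnajb5 and Dnajc3 lie in the upper right on both arrays.

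The 2 siPsmd14 arrays differed by over 0.5 in 10 of the 54 members, and by over 1 in Dnajc15 and Dnajb9. In siSox2 1 member differed by over 0.5 (Dnajc6), in siDdb1 1 and in siNonTarget 3. Over all genes, 9.86% differed by over 0.5 between the siPsmd14 arrays, 6.34% in siSox2, 6.61% in siDdb1 and 4.51% in siNonTarget. The Actb probe difference of siPsmd14 replicate 1 stands beside these gaps, and its part in them was not tested.

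The CCT genes varied little. The 8 subunit genes spanned 0.15 to 0.31 from their lowest to their highest of the 8 arrays, with a median span of 0.21. The 161 genes at least as bright as the dimmest of them had a median span of 0.27, and all genes 0.53. None of the 10 CCT genes passed in any of the 6 comparisons.

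Tcp1, the alpha subunit, read 12.86 and 12.87 in siPsmd14, 13.14 and 13.12 in siSox2, 13.10 and 13.12 in siDdb1, and 13.14 and 13.10 in siNonTarget. The siPsmd14 arrays lay below the other 6, with a difference of -0.26 from siNonTarget (SE 0.11, 95% interval -0.51 to 0.00, limma adjusted p = 0.348). Cct3, the gamma subunit, read 13.12 and 12.95 in siPsmd14 against 13.23 and 13.26 in siNonTarget (-0.21, adjusted p = 0.498). The largest difference of the other 6 in siPsmd14 was -0.11, for Cct7, and Cct6a, the zeta subunit, was the 1 subunit above 0 (0.10).

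In siPsmd14, 6 of the 8 subunit genes read below both siNonTarget arrays and 1 above both, against 24.1% and 22.4% of all genes. The list's median relative to the siNonTarget mean was -0.11 on siPsmd14 replicate 1 and -0.07 on replicate 2, -0.05 and -0.08 on the siSox2 arrays, and 0.02 and 0.03 on the siDdb1 arrays. Across these 8 genes, the 95% intervals against siNonTarget reached from -0.51 at the lowest to 0.38 at the highest. With 2 arrays a group, the standard errors ran from 0.11 for Tcp1 to 0.12 for Cct3. The interval of Tcp1 in siPsmd14, at a difference of -0.26, ended at 0.00. A difference of about that size was thus at the limit of what was resolved. Changes of over 0.51 in either direction lay outside every one of these intervals.

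**Figure D4:**
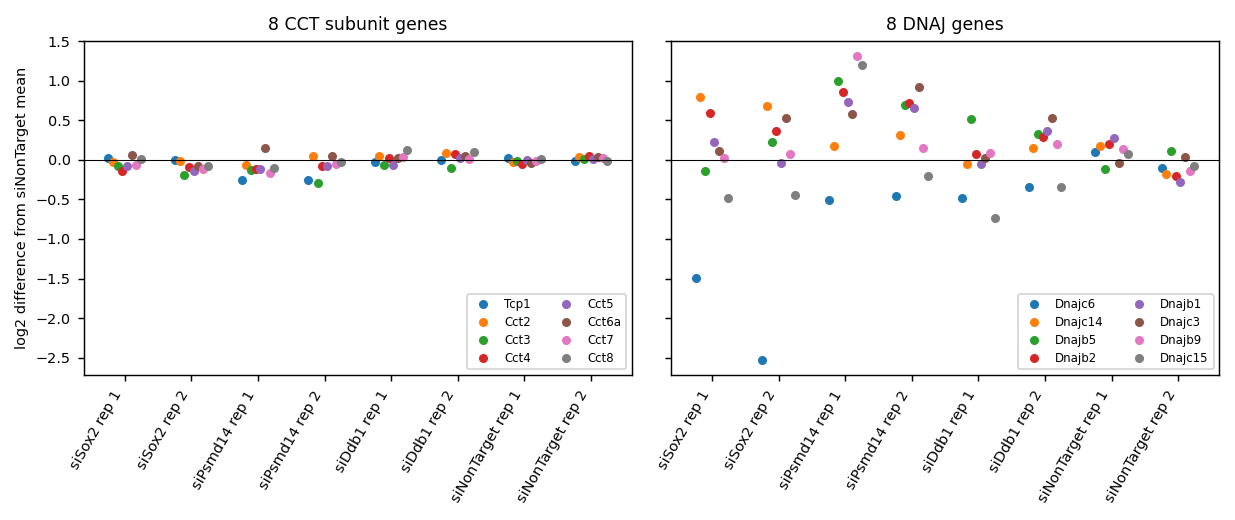
Difference from the siNonTarget mean (log2) of the 8 CCT subunit genes (left) and of 8 DNAJ genes (right) on each array, from siSox2 to siNonTarget, on 1 shared vertical scale. The CCT points lie within 0.3 of 0 on each array, whereas Dnajc6 reaches -2.53 on siSox2 replicate 2 and Dnajb9 1.31 on siPsmd14 replicate 1.

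Cct6b and Cct8l1, relatives of subunits that are known mainly from testis, read below the array medians (means of 4.15 and 3.41). Cct6b read 3.90 and 3.97 in siDdb1, 4.34 and 4.38 in siSox2 and 4.30 and 4.23 in siNonTarget, a difference of siDdb1 from siNonTarget of -0.32 (limma adjusted p = 0.502).

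In siDdb1, 3 members were higher and 1 lower at an unadjusted p under 0.05, against 5.85% and 4.01% of all genes, and none passed the adjusted threshold. They were Dnajc28, Dnajc1 (0.42, adjusted p = 0.559), Dnajb5 (0.42, adjusted p = 0.579) and, on the lower side, Cct6b. The lower siDdb1 array read 6.81 for Dnajc1 against 6.60 and 6.37 in siNonTarget, so that its arrays lay above the siNonTarget arrays in all 3 knockdowns, which share those control arrays. The siDdb1 arrays lay above both siNonTarget arrays in 9 members and below in 15, against 19.8% and 22.3% of all genes.

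In the direct comparisons, 2 members passed for siPsmd14 against siSox2 (4.03% of all genes), Dnajc6 and Dnajb5, both higher as were 1.98% of all genes, and 1 for siDdb1 against siSox2 (4.63% of all genes), Dnajc6, higher as were 2.03% of all genes. Dnajc6 missed the threshold for siPsmd14 against siSox2 without siPsmd14 replicate 1 (limma adjusted p = 0.115), siPsmd14 replicate 2 (0.0680) or either siNonTarget array (0.0577), and its difference was 1.01 without siSox2 replicate 2. For siDdb1 against siSox2 it missed without siDdb1 replicate 1 (limma adjusted p = 0.0939) or replicate 2 (0.0886). Dnajc25 did not pass for siPsmd14 against siSox2 on all arrays (-0.63, limma adjusted p = 0.0973). With siPsmd14 replicate 2 as the only siPsmd14 array, assumed to vary like the other groups, it was -0.90 (limma adjusted p = 0.0345), and with replicate 1 as the only one -0.36 (limma adjusted p = 0.230). None of the 54 passed for siPsmd14 against siDdb1 (0.588% of all genes), where 6 were higher and 1 lower at an unadjusted p under 0.05, against 6.49% and 5.86% of all genes. Dnajb2 had the smallest p there (0.61, SE 0.17, limma adjusted p = 0.201), with both siPsmd14 arrays above both siDdb1 arrays.

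The partners of the DNAJ genes gave few calls against siNonTarget. Of all genes, 2.81% rose and 1.46% fell in siSox2, while 1.89% passed in siPsmd14 and 0.0440% in siDdb1. Whether any partner list held a larger share of calls than all genes was not tested. Of 15 HSP70 genes, Hspa1b, a heat-inducible HSP70 (1.01, limma adjusted p = 0.0403), and Hspa12a (0.79, limma adjusted p = 0.0333) rose in siSox2. Hspa12a read 5.20 and 5.65 in siSox2 against 4.64 and 4.63 in siNonTarget, where it lay below the array medians. None of the 15 passed in siPsmd14, where Hspa1b was nearest (0.90, adjusted p = 0.0826), or in siDdb1. Hspa1b read 10.11 and 10.75 in siSox2, 10.13 and 10.53 in siPsmd14, 10.04 and 10.07 in siDdb1, and 9.43 and 9.42 in siNonTarget, so that all 6 knockdown arrays lay above the control. Hspa1a, its near-identical neighbour, whose transcripts a probe set may not tell from those of Hspa1b, read 6.74 and 8.54 in siSox2 against 5.51 and 6.13 in siNonTarget and did not pass (1.83, limma adjusted p = 0.101).

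Of 9 nucleotide exchange factors of HSP70, Bag3, an inducible co-chaperone of the autophagy route, rose in siSox2 (1.06, limma adjusted p = 0.0483) and in siPsmd14 (1.26, limma adjusted p = 0.041), and none passed in siDdb1. Of 8 measured HSP90 genes and co-chaperones none passed in any of the 3 (nearest in siPsmd14 was Fkbp4, -0.50, adjusted p = 0.126). Of 7 ER stress genes, Ddit3, which encodes CHOP, rose in siPsmd14 (1.21, limma adjusted p = 0.0482), while Herpud1 and Sdf2l1 did not pass. Ddit3 read 8.30 and 7.54 in siPsmd14, 7.15 and 7.37 in siSox2, 7.27 and 7.09 in siDdb1, and 6.55 and 6.88 in siNonTarget. The arrays of all 3 knockdowns thus lay above the control. Among the 6 measured regulators, Hsf2, Xbp1, Atf4, Atf6, Ern1 and Eif2ak3, none passed in any knockdown.

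On the CCT side, none of 8 prefoldin genes, whose products hand unfolded actin and tubulin to CCT, passed in any knockdown, with medians of -0.14, 0.02 and -0.07 in siSox2, siPsmd14 and siDdb1. Of 4 phosducin-like and related CCT cofactors, Pdcl2 fell in siSox2 (-1.67, limma adjusted p = 0.0128), reading 4.70 and 4.27 in siSox2 against 6.12 and 6.19 in siNonTarget. Its siSox2 readings lay below the array medians. Of 11 measured actin and tubulin genes, Tubb6 rose (1.31, limma adjusted p = 0.0356) and Tubb3 (-0.88, limma adjusted p = 0.00885) and Tuba4a (-0.78, limma adjusted p = 0.0303) fell in siSox2, and none passed in siPsmd14 or siDdb1. Each of these partner calls was lost without at least 3 of the 8 arrays taken 1 at a time, siNonTarget replicates 1 and 2 among them in each case. Ddit3 in siPsmd14 and Tubb6 in siSox2 kept their calls in only 1 of these 8 fits, and Bag3 in siSox2 in 2. Bag3 in siPsmd14 and Hspa1b and Hspa12a in siSox2 kept theirs in 3. Without 1 array the adjusted p in limma reached 0.318 for Bag3 in siSox2 and 0.267 in siPsmd14, 0.263 for Hspa1b, 0.270 for Ddit3 and 0.0969 for Tubb3, and no difference changed sign.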

How the data were processed

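The deposited table holds RMA intensity values on a linear scale for 45101 probe sets on 8 arrays. RNA input was 5 ng before amplification, per the labels' protocols. The authors used RMA, per the submitters' processing notes. No source used here gives its version or settings. Where RMA equalises the arrays' distributions, a shift shared by most probe sets cannot be seen. Scanner files and protein sequences were not used here.

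The values were log2 transformed and the 64 control probe sets were left out. Genes were named from probe sets with 1 symbol in GEO's platform annotation, and the symbols of all 54 members matched the reference gene table. The 8 arrays entered 1 model in limma 3.58.1 (R 4.3.3, lmFit and eBayes without trend, prior degrees of freedom 5.02). P-values were adjusted by Benjamini-Hochberg over 45037 probe sets. Every adjusted p comes from limma unless an alternative is named. The fit was tested on simulated data with independent noise, so that test does not cover effects shared within an array or RNA quality. With 2 arrays a group, precision is limited by their number.

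The members and lists were chosen with earlier results of these data known. Named were all CCT genes, Dnaja1 to Dnaja4, Dnajb1, Dnajb9, Dnajc3, the members past the threshold, those with the smallest p in each class, and the leading genes of each partner list. Others named for a location or gap were chosen after their values were seen. Alternatives covered filters, scaling, the variance model, the arrays fitted, the replicate block, probe sets, the threshold and leaving out each array.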

Additional observations from a re-analysis of the deposited data

How the results depend on the processing

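The number of members past the threshold was small. In siSox2 against siNonTarget it was 2, and it was 1 (Dnajc6) with only the 4 arrays of the comparison, with the replicate block, with the mean of all probe sets or at an adjusted p of 0.01, and 0 to 1 without 1 array. In siPsmd14 against siNonTarget it was 0, and it was 1 with array medians subtracted, the mean of all probe sets (Dnajb2) or 1 probe set per gene, 2 at an adjusted p of 0.1, and 0 to 3 without 1 array (3 without siPsmd14 replicate 2, Dnajb5, Dnajb9 and Dnajc15, where the lone siPsmd14 array is assumed to vary like the other groups, as in every such fit). In siDdb1 against siNonTarget it was 0 in every alternative run, with 4 at an unadjusted p under 0.05 in limma. For siPsmd14 against siSox2 it was 2, and it was 1 with a trended and robust eBayes, array weights or the replicate block, 0 with only 4 arrays, the mean of all probe sets or an adjusted p of 0.01, and 0 to 4 without 1 array. For siDdb1 against siSox2 it was 1, and it was 2 with either filter on dim probe sets, quantile normalization, array weights, 1 probe set per gene or an adjusted p of 0.1 (Dnajc14 besides Dnajc6), 0 with only 4 arrays or an adjusted p of 0.01, and 0 to 1 without 1 array. For siPsmd14 against siDdb1 it was 0, and 0 to 3 without 1 array. The CCT median in siSox2 was -0.0638 with either filter on dim probe sets, which remove Cct6b and Cct8l1, and 0.0205 with the mean of all probe sets. With that mean it was -0.0418 in siPsmd14, 0.0115 in siDdb1 and -0.0972 for siPsmd14 against siDdb1. Without 1 array, the DNAJ median ranged from -0.0794 to 0.0383 in siSox2, -0.0229 to 0.0426 in siPsmd14, -0.0702 to -0.0247 in siDdb1, 0.0508 to 0.138 for siPsmd14 against siSox2, -0.0497 to 0.00289 for siDdb1 against siSox2 and 0.0302 to 0.138 for siPsmd14 against siDdb1. The CCT median then ranged from -0.0787 to -0.00775 in siSox2, -0.117 to -0.0662 in siPsmd14, -0.0015 to 0.0589 in siDdb1, -0.0294 to 0.0175 for siPsmd14 against siSox2 and -0.130 to -0.0992 for siPsmd14 against siDdb1. The cause of these moves was not tested. None of the differences past the threshold on all arrays changed sign in an alternative. For Dnajc15 the siPsmd14 arrays lay on either side of the siNonTarget arrays, so the sign of that difference depends on the array kept. The correlation of the replicate differences between groups, across genes, lay between -0.28 and 0.27. It was 0.27 for siSox2 with siNonTarget, and for siDdb1 -0.28 with siSox2 and -0.23 with siNonTarget. The labels state no block, and whether replicate numbers mark one was not tested. With the replicate block Dnajc14 in siSox2 (0.73, adjusted p = 0.0585) and Dnajb5 in siPsmd14 against siSox2 (0.80, adjusted p = 0.0608) missed the threshold. With the siDdb1 numbers crossed, a setting chosen after seeing the data, 2 members passed for siDdb1 against siSox2.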
